A study of Mus musculus with 9 samples.

Results

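Cell division leaves a trace in bulk RNA, because genes of DNA replication and mitosis are transcribed mainly in cycling cells. The 44 genes described here were chosen by name, as known genes of replication, mitosis and proliferation. Each of the 44 matched 1 row of the 46517 gene identifiers counted, and each had enough counts to be among the 17947 genes tested. They were grouped here by role. A replication group of 19 genes holds the licensing and fork genes, the deoxynucleotide enzymes and the regulators of S phase entry. A mitosis group of 25 genes holds the cyclins and kinases of mitotic entry, the spindle checkpoint, the partners of the anaphase-promoting complex, the spindle motors, the kinetochore and 2 chromosome proteins.

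RNA was sequenced in bulk from primary glioblastoma tissue of 3 mouse models with 3 libraries each, all on a mixed strain background. Synapsin-cre is named for a promoter active in neurons, Nestin-creERT2 for one active in neural stem and progenitor cells, and NG2-creERTM for one active in oligodendrocyte precursor cells and pericytes. ERT2 and ERTM mark forms of Cre that need tamoxifen. The series asks how tumours standing for different cells of origin compare, and its labels give neither the tumour-driving alleles nor the age, sex or site of the tumours. Libraries are numbered within each model by the order of their records. The labels do not state that they are separate animals, so p-values measure the spread between these samples, part of which may be technical.

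In G1, E2F factors freed from pocket proteins switch on genes that license replication origins and supply deoxynucleotides. Later, complexes of MuvB with MYBL2 and FOXM1 switch on genes of mitosis, many through a promoter element called the cell cycle homology region. Cyclins with their kinases drive each step, and the anaphase-promoting complex ends mitosis by destroying cyclin B and securin. Proliferation markers of this kind, Ki-67 among them, are commonly assessed in malignant gliomas.

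Counts in genes ranged from 23557398 in Synapsin-cre replicate 1 to 41099967 in Nestin-creERT2 replicate 3, with a median of 34742585. Levels are CPM, counts scaled to a common library size and corrected with TMM size factors. Values of a model are listed in the order of replicates 1, 2 and 3. Comparisons between genes use CPM per kilobase of exon. All 10 markers of glioma and glial progenitor cells that were examined were present above 1 CPM in at least 1 library of every model. In bulk tissue, fewer dividing cells and less RNA per dividing cell cannot be told apart.

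Transcripts of each of the 44 genes were lower in 1 of the 9 libraries than in all of the other 8. The mean log2 CPM of the 44 genes was 2.85 in Synapsin-cre replicate 1, 5.78 in replicate 2 and 6.73 in replicate 3. Nestin-creERT2 libraries had means of 5.89, 6.03 and 5.65, and NG2-creERTM libraries 6.41, 6.44 and 6.24. The first Synapsin-cre library thus lay below all others, and replicate 3 of that model above all others. Together the 44 genes took 0.0512% of CPM in Synapsin-cre replicate 1 and 0.310 to 0.676% in the other 8 libraries. The model means were 5.12 ± 2.02 in Synapsin-cre, 5.86 ± 0.19 in Nestin-creERT2 and 6.36 ± 0.11 in NG2-creERTM (SD, n = 3 libraries each).

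**Figure D1:**
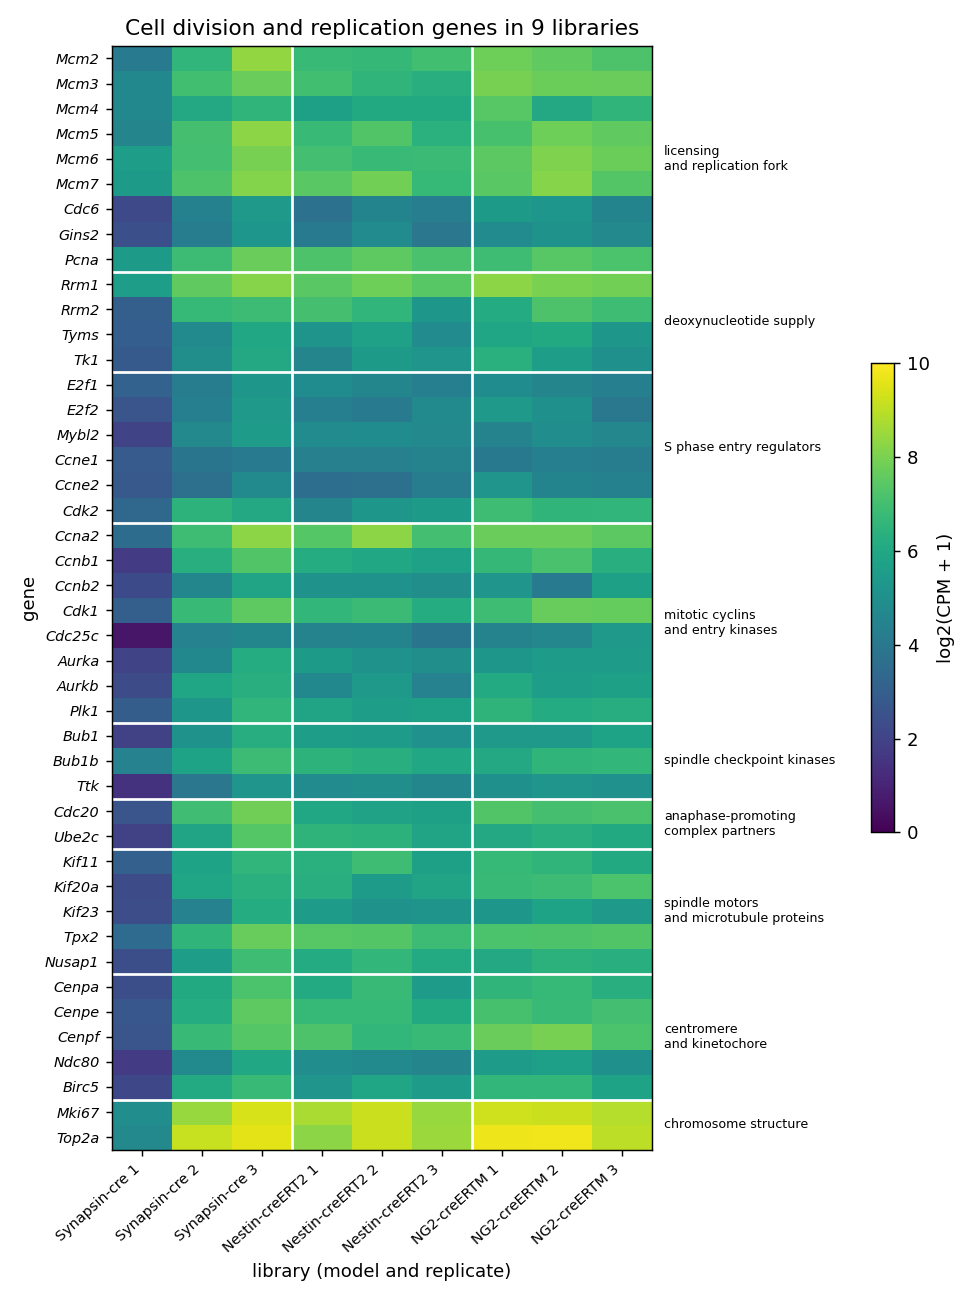
Colour gives log2(CPM + 1) for each of the 44 genes (rows, grouped by role, with white lines between roles) in each of the 9 libraries (columns, with white lines between models). The first column, Synapsin-cre replicate 1, is the darkest for all 44 genes.

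Synapsin-cre replicate 1 was the lowest library for 44 of 44 genes, where it was the lowest for 22.8% of all genes tested. Because this library was picked out after its values were seen, the figures that follow describe it and carry no test. The median CPM of the other 8 libraries exceeded its CPM by a median factor of 10.7 over the 44 genes. The factor ran from 2.75 for Mcm4 to 40.4 for Cdc25c, which had only 12 counts in that library. The same library was also the least deeply sequenced. It carried 8278 CPM summed over 12 mature neuron markers, against 823 to 1191 in Nestin-creERT2, 56.3 to 248 in NG2-creERTM and 89.1 to 229 in the other Synapsin-cre libraries, and 11 of the 12 were highest there. Its summed glioma and glial progenitor markers were 1056 CPM, against 3417 to 10874 elsewhere, and 8 of the 10 were lowest there. Other lists beyond the range of the other 8 libraries were astrocyte markers (8282 CPM against 557 to 6677, 3 of 10 highest there), microglia and macrophage markers (972 against 122 to 724, 6 of 11 highest), endothelial markers (444 against 132 to 404, 3 of 8 highest) and fibroblast and meningeal markers (364 against 557 to 3275, 1 of 9 lowest). Summed levels of the remaining 6 lists, among them oligodendrocyte and Schwann cell markers, lay within the range of the other libraries. By mean log2 CPM, oligodendrocyte markers were also highest there (6.17 against 3.60 to 5.77, 3 of 8 highest). By that measure astrocyte (8.28 against 4.91 to 8.45) and fibroblast and meningeal markers (4.72 against 2.50 to 6.67) lay within the range. The share of all genes that were highest in Synapsin-cre replicate 1 was not counted. Mitochondrially encoded genes made up 2.50% of its counts, within the 1.60 to 2.76% of the whole set. The part of these differences in the low division genes was not tested.

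The shortfall was unequal across the cycle. The 19 replication genes averaged a log2 difference of -2.37 from the mean of the other 8 libraries, and the 25 mitosis genes averaged -3.99. In Synapsin-cre replicate 1 replication genes averaged 1.24 log2 CPM above mitosis genes, whereas in each of the other 8 libraries they averaged below them, by -0.57 to -0.22. Mean differences by role were -2.12 for S phase entry regulators, -2.35 for licensing and fork genes and -2.83 for deoxynucleotide enzymes. Among mitotic roles they were -3.26 for checkpoint kinases, -3.78 for spindle proteins, -4.03 for mitotic cyclins and entry kinases, -4.27 for kinetochore genes, -4.29 for chromosome proteins and -4.49 for the anaphase-promoting complex partners. Single genes of the 2 groups overlapped. Rrm2 (-3.74) lay among the mitosis genes, and the checkpoint kinase Bub1b (-1.95) lay among the replication genes.

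**Figure D2:**
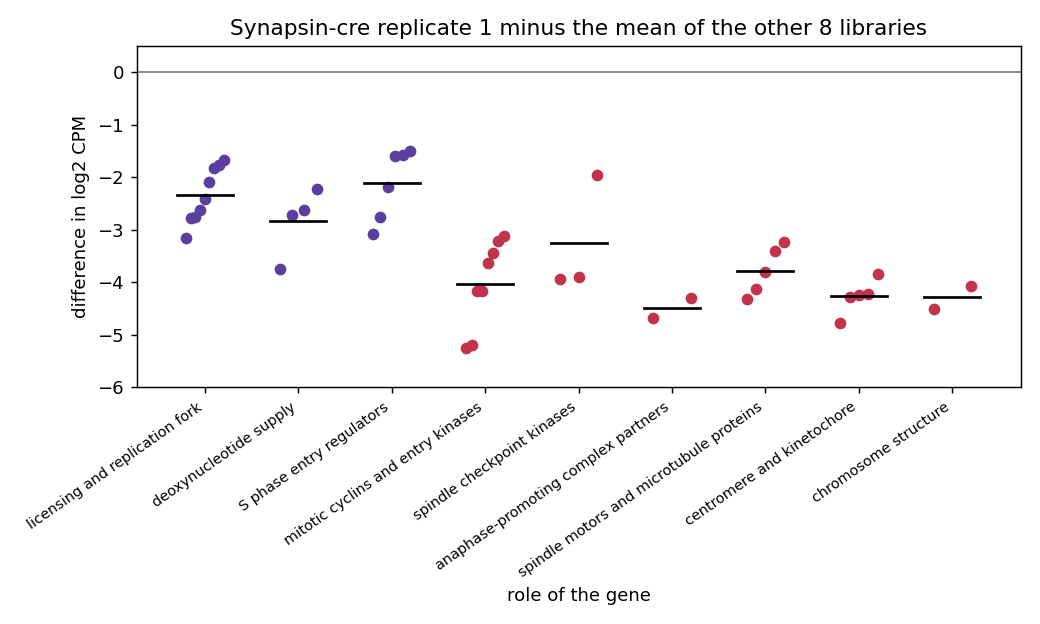
Each point is 1 gene, and its height is the log2 CPM in Synapsin-cre replicate 1 minus the mean log2 CPM of the other 8 libraries. Roles of the replication group are purple, roles of the mitosis group are red, black lines are means by role, and only Bub1b among the red points lies above -3.

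Licensing and fork genes came first in the order of the cycle. Pcna, the sliding clamp of DNA polymerase, stood at 42.3, 115 and 207 CPM in Synapsin-cre, 146, 184 and 140.2 CPM in Nestin-creERT2 and 119, 167 and 143 CPM in NG2-creERTM. It had the highest mean level per length of the replication group, 63.6 CPM per kb over the 8 libraries other than Synapsin-cre replicate 1, and within these 8 the models overlapped. The MCM2 to MCM7 proteins form the helicase that is loaded at origins and unwinds DNA at the fork. Mcm7 was at 43.1, 146 and 282 CPM in Synapsin-cre, 175, 234 and 103 CPM in Nestin-creERT2 and 173, 288 and 159 CPM in NG2-creERTM. Mcm3 was at 24.3, 125.3 and 210.5 CPM in Synapsin-cre, 124.7, 92.1 and 75.2 CPM in Nestin-creERT2 and 248, 214 and 211 CPM in NG2-creERTM. Every NG2-creERTM library exceeded every Nestin-creERT2 library in Mcm3, with means of 224 ± 20.2 and 97.3 ± 25.2 CPM (SD, n = 3 each).

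Mcm6 was at 47.6, 127 and 247 CPM in Synapsin-cre, 129.6, 108 and 111 CPM in Nestin-creERT2 and 177, 269 and 216 CPM in NG2-creERTM. Its NG2-creERTM libraries likewise all exceeded the Nestin-creERT2 ones, while Synapsin-cre spanned both ranges. Mcm4 was at 24.3, 65.1 and 93.4 CPM in Synapsin-cre, 50.5, 66.8 and 66.6 CPM in Nestin-creERT2 and 167, 64.5 and 93.0 CPM in NG2-creERTM. NG2-creERTM replicate 1 was its highest library and the other 2 of that model lay near the remaining tumours, so that the models overlapped. Mcm2 and Cdc6, which encodes the loader of the helicase, also separated NG2-creERTM from Nestin-creERT2 without overlap, whereas Mcm5 and Gins2, a subunit of the active helicase, did not. Over the 8 libraries Mcm2 ranged from 95.6 to 331 CPM, Mcm5 from 81.7 to 303.1 CPM, Cdc6 from 12.6 to 42.3 CPM and Gins2 from 14.7 to 37.2 CPM.

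Deoxynucleotide supply rests on ribonucleotide reductase, whose large subunit is encoded by Rrm1 and whose S phase small subunit is encoded by Rrm2. Rrm1 was at 48.2, 189 and 289.8 CPM in Synapsin-cre, 175, 220.2 and 168 CPM in Nestin-creERT2 and 305, 255 and 235 CPM in NG2-creERTM. It was the steadiest gene beside the group mean in the 8 libraries, with a standard deviation of 0.14 log2 units around it, and all NG2-creERTM libraries exceeded all Nestin-creERT2 libraries. Rrm2 was at 7.08, 103 and 115 CPM in Synapsin-cre, 132, 94.7 and 38.6 CPM in Nestin-creERT2 and 69.9, 148 and 118 CPM in NG2-creERTM. Its highest and lowest of the 8 were NG2-creERTM replicate 2 and Nestin-creERT2 replicate 3, and the models overlapped. Tyms, thymidylate synthase, ranged from 25.5 to 65.8 CPM in the 8 libraries, and Tk1, the salvage enzyme thymidine kinase, from 22.2 to 80.0 CPM, both with overlap.

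Among regulators of S phase entry, cyclin E and its kinase CDK2 showed different orders of the models. Cdk2 was at 9.12, 86.8 and 64.0 CPM in Synapsin-cre, 22.7, 38.7 and 43.2 CPM in Nestin-creERT2 and 117, 92.2 and 96.0 CPM in NG2-creERTM. All 3 NG2-creERTM libraries lay above all other libraries, and all 3 Nestin-creERT2 libraries lay below the 2 higher Synapsin-cre libraries. Ccne1, which encodes cyclin E1, was at 6.24, 13.9 and 16.6 CPM in Synapsin-cre, 19.2, 19.2 and 21.3 CPM in Nestin-creERT2 and 15.3, 19.1 and 17.97 CPM in NG2-creERTM. It ran the other way, with every Nestin-creERT2 library above every library of both other models, within a narrow range. Ccne2, which encodes cyclin E2, was at 5.98, 12.03 and 26.9 CPM in Synapsin-cre, 11.2, 11.8 and 18.01 CPM in Nestin-creERT2 and 36.3, 21.7 and 19.98 CPM in NG2-creERTM. All NG2-creERTM libraries exceeded all Nestin-creERT2 libraries in Ccne2.

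Over the 8 libraries Ccne1 was the steadiest gene in absolute terms, with a highest value 1.53 times the lowest, and Cdk2 the most variable, with a factor of 5.16. Ccne1 was also the gene least like the others in these libraries, with a correlation of -0.25 with the mean of the other 43 genes over 8 libraries. E2f1, an activating E2F, was at 7.88, 17.5 and 37.9 CPM in Synapsin-cre, 28.2, 22.9 and 19.1 CPM in Nestin-creERT2 and 28.2, 22.3 and 18.9 CPM in NG2-creERTM. Apart from the low replicate 1 and the high replicate 3 of Synapsin-cre, its values lay between 17.5 and 28.2 CPM with the models overlapping. E2f2, another activating E2F, ranged from 15.2 to 41.5 CPM in the 8 libraries and Mybl2, the MYB protein of the mitotic programme, from 21.5 to 45.6 CPM, both with overlap between models.

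**Figure D3:**
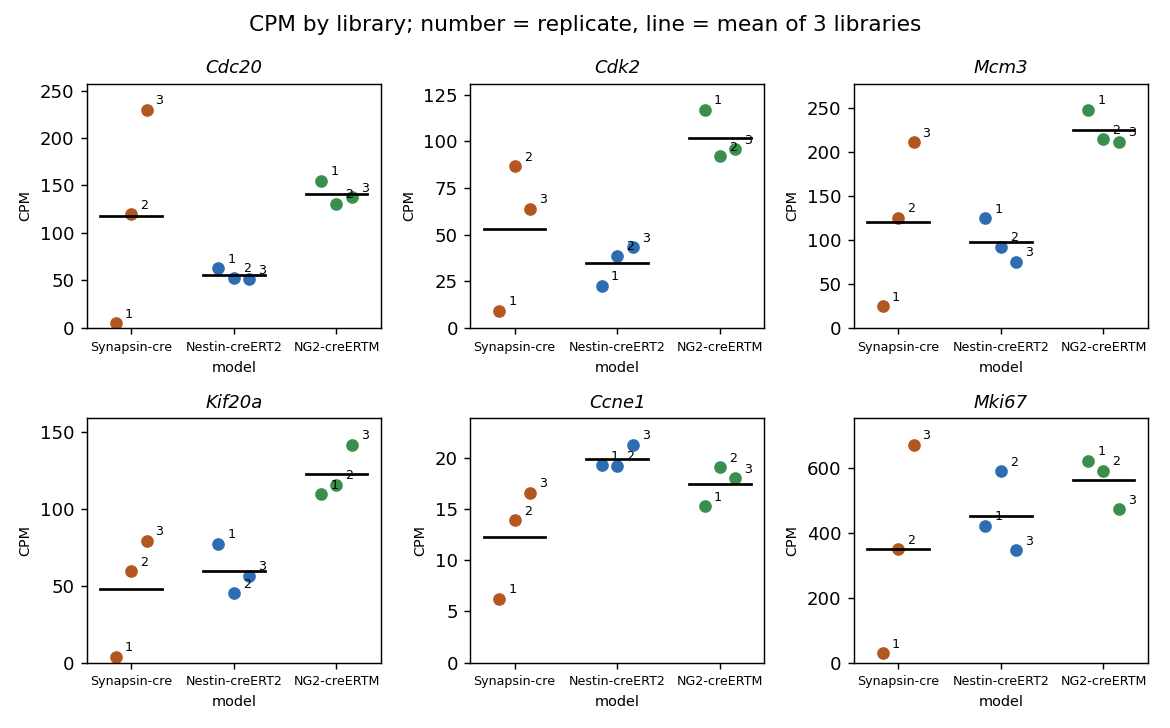
CPM of 6 genes on linear axes from 0, with 1 point per library labelled by its replicate number, coloured by model, and a black line at the mean of the 3 libraries. Nestin-creERT2 libraries cluster at 51.0 to 62.9 CPM in Cdc20, below NG2-creERTM at 130.9 to 154.8 CPM, while in Ccne1 they are the highest.

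Entry into mitosis is driven by cyclins A and B with CDK1. Ccna2, which encodes cyclin A2, was at 10.6, 117 and 303 CPM in Synapsin-cre, 165, 305 and 128 CPM in Nestin-creERT2 and 209, 208 and 179.7 CPM in NG2-creERTM. Nestin-creERT2 replicate 2 and Synapsin-cre replicate 3 were the highest, and the models overlapped. Ccnb1, which encodes cyclin B1, was at 2.30, 77.8 and 156 CPM in Synapsin-cre, 72.0, 60.5 and 52.2 CPM in Nestin-creERT2 and 100.9, 141 and 78.4 CPM in NG2-creERTM. Nestin-creERT2 lay wholly below the 5 libraries made up of NG2-creERTM and the later 2 Synapsin-cre ones. Plk1, a kinase that acts throughout mitosis, was at 6.64, 37.7 and 94.2 CPM in Synapsin-cre, 56.9, 46.3 and 50.3 CPM in Nestin-creERT2 and 88.6, 70.6 and 73.3 CPM in NG2-creERTM. NG2-creERTM exceeded Nestin-creERT2 without overlap.

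Aurka, the spindle pole kinase, was at 3.10, 24.6 and 71.9 CPM in Synapsin-cre, 42.3, 33.4 and 30.1 CPM in Nestin-creERT2 and 38.2, 43.7 and 45.6 CPM in NG2-creERTM. Its NG2-creERTM and Nestin-creERT2 ranges overlapped, since replicate 1 of Nestin-creERT2 exceeded replicate 1 of NG2-creERTM. Cdc25c, the phosphatase that activates CDK1, was at 0.531, 20.5 and 23.3 CPM in Synapsin-cre, 21.3, 21.6 and 14.0 CPM in Nestin-creERT2 and 21.1, 24.0 and 41.3 CPM in NG2-creERTM. Beyond its very low value in Synapsin-cre replicate 1, its one distinct library was NG2-creERTM replicate 3, the highest. Cdk1 itself ranged from 72.1 to 202 CPM in the 8 libraries and Aurkb, the kinase of the chromosomal passenger complex, from 20.6 to 79.3 CPM, and in both every NG2-creERTM library exceeded every Nestin-creERT2 library. Ccnb2, which encodes cyclin B2, ranged from 16.3 to 55.8 CPM, and NG2-creERTM alone covered most of that range, from 16.3 CPM in replicate 2 to 50.9 CPM in replicate 3.

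The spindle checkpoint holds back anaphase until chromosomes are attached. Bub1b, which encodes the checkpoint protein BUBR1, was at 20.5, 55.2 and 116 CPM in Synapsin-cre, 87.6, 78.4 and 62.9 CPM in Nestin-creERT2 and 64.7, 91.7 and 96.9 CPM in NG2-creERTM. Its value in Synapsin-cre replicate 1 was the least depressed of the mitosis group, with 463 counts. Bub1, a checkpoint kinase at kinetochores, was at 2.92, 33.5 and 73.1 CPM in Synapsin-cre, 47.5, 44.6 and 32.2 CPM in Nestin-creERT2 and 40.9, 39.99 and 54.6 CPM in NG2-creERTM. Both genes overlapped between models, while Ttk, the kinase MPS1, ranged from 14.5 to 35.9 CPM in the 8 libraries and was higher in every NG2-creERTM library than in every Nestin-creERT2 library.

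Cdc20, the activator that turns the anaphase-promoting complex on at the end of metaphase, showed the clearest contrast of the mitosis group. It lies on chromosome 4 from 118432901 to 118437352 on the minus strand (GRCm38) and was at 5.22, 119.9 and 229.7 CPM in Synapsin-cre, 62.9, 52.8 and 51.0 CPM in Nestin-creERT2 and 155, 131 and 137 CPM in NG2-creERTM. Nestin-creERT2 libraries were tightly grouped and low, with a mean of 55.6 ± 6.40 CPM against 141 ± 12.4 CPM in NG2-creERTM (SD, n = 3 each), and Synapsin-cre held both the lowest and the highest library. Ube2c, the ubiquitin-conjugating enzyme of the same complex, was at 2.97, 57.0 and 164 CPM in Synapsin-cre, 89.1, 85.8 and 56.2 CPM in Nestin-creERT2 and 64.2, 76.4 and 67.3 CPM in NG2-creERTM. It did not follow Cdc20, since Nestin-creERT2 and NG2-creERTM overlapped in it.

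Kif20a, a kinesin of the central spindle needed for cytokinesis, was at 3.94, 59.4 and 79.4 CPM in Synapsin-cre, 77.2, 45.00 and 56.6 CPM in Nestin-creERT2 and 109.6, 116 and 142 CPM in NG2-creERTM. All NG2-creERTM libraries lay above all 6 others. Tpx2, which activates Aurora A on spindle microtubules, was at 10.2, 92.8 and 201 CPM in Synapsin-cre, 168, 161 and 116 CPM in Nestin-creERT2 and 142, 146 and 157 CPM in NG2-creERTM. Kif23, a kinesin of the cytokinetic midzone, was at 4.205, 20.7 and 71.4 CPM in Synapsin-cre, 43.8, 33.8 and 34.7 CPM in Nestin-creERT2 and 38.5, 54.2 and 40.2 CPM in NG2-creERTM. Neither separated the models, and Kif11 (49.98 to 118 CPM in the 8 libraries), the motor that pushes spindle poles apart, and Nusap1 (47.0 to 117 CPM), a microtubule bundler, did not either.

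Birc5, which encodes the passenger protein survivin, was at 3.50, 68.4 and 109 CPM in Synapsin-cre, 36.4, 57.1 and 45.1 CPM in Nestin-creERT2 and 97.1, 97.7 and 55.1 CPM in NG2-creERTM. Cenpa, the histone H3 variant of centromeres, was at 4.25, 66.7 and 142 CPM in Synapsin-cre, 68.2, 108 and 43.98 CPM in Nestin-creERT2 and 92.6, 103 and 78.5 CPM in NG2-creERTM. In both, Nestin-creERT2 replicate 2 exceeded NG2-creERTM replicate 3, so the models overlapped. Ndc80, which encodes the kinetochore's microtubule coupler, was at 2.35, 26.6 and 63.4 CPM in Synapsin-cre, 28.6, 26.1 and 22.7 CPM in Nestin-creERT2 and 44.8, 49.3 and 31.4 CPM in NG2-creERTM. All NG2-creERTM libraries exceeded all Nestin-creERT2 libraries, as also in the kinetochore motor Cenpe (65.9 to 182 CPM in the 8 libraries) but not in Cenpf (96.7 to 246 CPM), a kinetochore and nuclear matrix protein. Ndc80 had the highest correlation with the mean of the other 43 genes over the 8 libraries, 0.95.

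Top2a, the topoisomerase that untangles sister chromatids, was at 25.1, 566 and 769 CPM in Synapsin-cre, 310.0, 589 and 360.2 CPM in Nestin-creERT2 and 854, 879 and 515 CPM in NG2-creERTM. Per length of exon it had the highest mean level of the 44 genes, 67.2 CPM per kb over the 8 libraries. Mki67 encodes Ki-67, a coat protein of mitotic chromosomes and a proliferation marker. It was at 29.3, 349.6 and 672 CPM in Synapsin-cre, 422, 589 and 347 CPM in Nestin-creERT2 and 623, 592 and 473 CPM in NG2-creERTM. In both genes Nestin-creERT2 replicate 2 exceeded NG2-creERTM replicate 3. Mean Mki67 levels were 562 ± 79.1 CPM in NG2-creERTM, 453 ± 124 CPM in Nestin-creERT2 and 350.3 ± 321 CPM in Synapsin-cre (SD, n = 3 each), differences smaller than the spread within Synapsin-cre.

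Across genes, the order of mean levels per length over the 8 libraries ran from Top2a, Pcna (63.6 CPM per kb), Cdc20 (62.9 CPM per kb) and Mki67 (50.5 CPM per kb) at the top to Kif23 (5.34 CPM per kb), E2f2 (5.33 CPM per kb), Cdc6 (5.13 CPM per kb) and Cdc25c (4.76 CPM per kb) at the bottom. Differences between neighbours in that order were not tested. The highest of the 8 libraries exceeded the lowest by a median factor of 2.80 over the 44 genes. Among these 8 libraries, Synapsin-cre replicate 3 was the highest for 23 genes, NG2-creERTM replicates 1 and 2 for 8 each, and NG2-creERTM replicate 3 for 2. Nestin-creERT2 replicate 3 was the lowest for 18 genes and Synapsin-cre replicate 2 for 13.

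Most of the genes rose and fell together from library to library. Pearson correlations of log2 CPM between pairs of the 44 genes had a median of 0.91 over 9 libraries and of 0.57 over 8 without Synapsin-cre replicate 1, and 880 of the 946 pairs stayed positive. The lowest pair over the 8 libraries was at -0.78. The share of positive pairs among all genes was not counted. The points share their libraries, so these values are a description.

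The split between replication and mitosis genes in Synapsin-cre replicate 1 led to their promoters. RefSeq promoter windows on GRCm38.p6, each from 250 bases before to 50 bases after a transcription start, were at hand for 36 of the 44 genes (38 windows) and for 27025 genes in all (32851 windows). Motifs were searched on both strands: TTTGAA or TTTAAA for the cell cycle homology region, CCAAT for the CCAAT box bound by NF-Y, and TTTGGCGC, TTTCCCGC, TTTCGCGC or TTTGCCGC for the E2F site. The E2F spellings can overlap one another. The 6 examples below show the 150 bases before the RefSeq start, 3 genes of mitosis and 3 of replication. Motif matches of either strand are in capitals. The Cdc6 stretch lies wholly inside the gene as annotated for the counts, from 98907801 to 98923940. Those of Cdc20, Ccnb1 and Cdk1 overlap their annotated genes in part. They were chosen because Cdc20, Cdk2, Ccnb1 and Mcm6 carry results above, and Cdk1 and Cdc6 show both motif types or an E2F match alone.

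Cdc20, chr4:118437344-118437493, minus strand: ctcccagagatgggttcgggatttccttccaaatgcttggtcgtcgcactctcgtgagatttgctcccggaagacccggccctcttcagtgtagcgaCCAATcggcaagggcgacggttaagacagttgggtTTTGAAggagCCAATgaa
Ccnb1, chr13:100786487-100786636, minus strand: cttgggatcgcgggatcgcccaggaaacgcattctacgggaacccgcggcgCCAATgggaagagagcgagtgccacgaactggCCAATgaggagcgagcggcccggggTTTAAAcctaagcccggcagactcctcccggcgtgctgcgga
Cdk1, chr10:69352913-69353062, minus strand: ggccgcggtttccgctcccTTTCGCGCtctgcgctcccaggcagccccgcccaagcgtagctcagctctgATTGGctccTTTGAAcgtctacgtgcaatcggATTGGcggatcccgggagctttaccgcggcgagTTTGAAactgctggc
Mcm6, chr1:128359706-128359855, minus strand: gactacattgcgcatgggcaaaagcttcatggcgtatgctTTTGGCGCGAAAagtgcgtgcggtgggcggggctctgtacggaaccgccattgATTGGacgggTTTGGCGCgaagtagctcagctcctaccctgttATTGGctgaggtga
Cdk2, chr10:128705052-128705201, minus strand: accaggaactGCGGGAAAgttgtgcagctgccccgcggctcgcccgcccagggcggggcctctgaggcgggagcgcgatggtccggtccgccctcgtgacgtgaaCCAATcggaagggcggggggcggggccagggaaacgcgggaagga
Cdc6, chr11:98908001-98908150, plus strand: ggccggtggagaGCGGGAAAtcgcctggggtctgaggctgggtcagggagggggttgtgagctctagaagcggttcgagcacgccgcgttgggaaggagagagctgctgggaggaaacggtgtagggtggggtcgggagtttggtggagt

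In Cdc20 a TTTGAA match starts 18 bases before the start, between CCAAT matches at 53 and 8 bases. Ccnb1 has TTTAAA at 42 bases and CCAAT at 99 and 67 bases. Cdk1 has TTTGAA at 71 and 15 bases, CCAAT on the other strand at 80 and 48 bases and an E2F match at 131 bases. The replication examples have no TTTGAA or TTTAAA in the 150 bases shown. Mcm6 has TTTGGCGC at 110 and 47 bases, the first overlapping a match on the other strand, and Cdk2 and Cdc6 have TTTCCCGC on the other strand at 140 and 138 bases.

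A cell cycle homology match was found in 18 of 20 windows of mitosis genes (90.0%), in 6 of 18 windows of replication genes (33.3%) and in 27.6% of all windows. The CCAAT box matched 85.0% of mitosis windows, 66.7% of replication windows and 37.4% of all. An E2F spelling matched 1 of 20 mitosis windows, 7 of 18 replication windows (38.9%) and 2.26% of all. The 2 mitosis windows without a cell cycle homology match were those of Nusap1 and Bub1. In Synapsin-cre replicate 1 their log2 differences from the other 8 libraries were -4.12 and -3.90, near the mitosis mean of -3.99. The part of these motifs in the shortfall was not tested. Bub1b, the mitosis gene least depressed in Synapsin-cre replicate 1, has 1 match each of the homology region and the CCAAT box in its window. A match describes letters in a window and shows no binding.

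**Figure D4:**
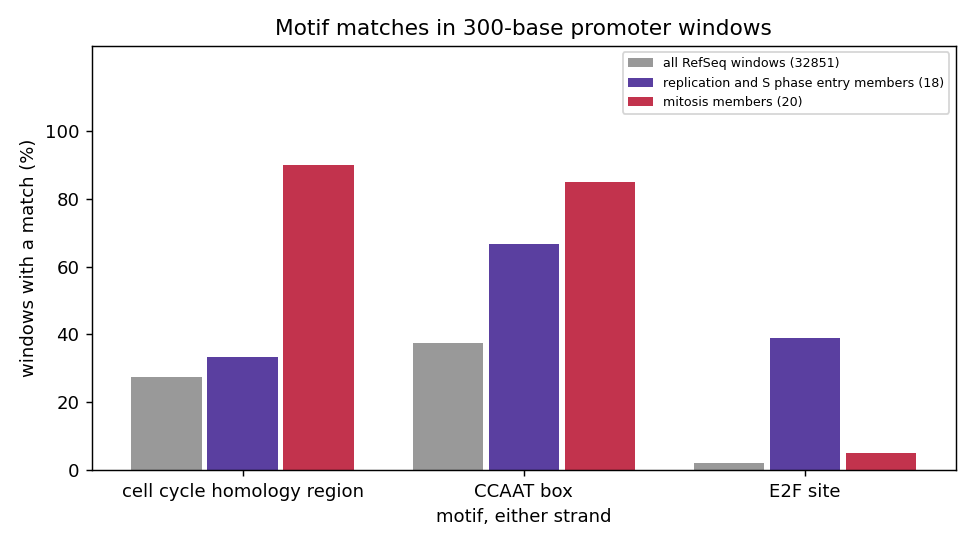
Bars give the percent of 300-base promoter windows with at least 1 match to each motif on either strand, for all RefSeq windows (grey), windows of replication and S phase entry genes (purple) and windows of mitosis genes (red), with the number of windows in the legend. Red exceeds purple for the cell cycle homology region (90.0 against 33.3%), and purple exceeds red for the E2F site.

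Most of the 44 genes had higher fitted levels in NG2-creERTM than in Nestin-creERT2 tumours, with 0 past the test of all 9 libraries. Fold changes of NG2-creERTM over Nestin-creERT2 were positive for 36 of 44 genes, with a median log2 fold change of 0.53 against 0.02 over all genes tested. In edgeR's quasi-likelihood test of all 9 libraries with Benjamini-Hochberg adjustment, 0 of the 44 genes and 0% of all genes passed an adjusted p of 0.05. At an unadjusted p under 0.05 there was 1 of the 44 genes (Cdk2) and 11.3% of all genes (2021). limma voom also passed 0 of the 44 genes and 0% of all genes, and DESeq2 passed 0 of the 44 and 3.48% of all genes (624). Cdk2 had a log2 fold change of 1.54 (SE 0.65, edgeR adjusted p = 0.428), Cdc20 of 1.34 (SE 0.89, adjusted p = 0.609) and Mcm3 of 1.20 (SE 0.61, adjusted p = 0.498).

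In 16 of 44 genes (36.4%) every NG2-creERTM library lay above every Nestin-creERT2 library, where 11.0% of all genes did so. They were Mcm2, Mcm3, Mcm6, Cdc6, Rrm1, Ccne2 and Cdk2 of the replication group and Ccnb1, Cdk1, Aurkb, Plk1, Ttk, Cdc20, Kif20a, Cenpe and Ndc80 of the mitosis group. Ccne1 alone lay wholly below, where 14.2% of all genes did. Since the 44 genes moved together, the 16 are not independent of each other.

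The common biological coefficient of variation, the spread edgeR fits, was 0.612 with all 9 libraries and 0.503 without Synapsin-cre replicate 1. Fitted on the 6 libraries of NG2-creERTM and Nestin-creERT2 alone, edgeR with Benjamini-Hochberg adjustment called 1.39% of all genes (237 of 17108) and 1 of the 44 genes. That gene was Cdc20, which was higher in NG2-creERTM by 1.34 on the log2 scale (SE 0.23, adjusted p = 0.0446). Cdk2 had the larger fold change, 1.55, and narrowly missed the threshold (SE 0.30, edgeR adjusted p = 0.0518). Unadjusted p lay under 0.05 for 15 of the 44 genes (34.1%), all higher in NG2-creERTM, and for 19.7% of all genes. The fits that follow left out Synapsin-cre replicate 1, picked because the 44 genes were lowest in it. Its absence also enters the spread fitted for these genes, so these results are a description. With the other 2 Synapsin-cre libraries kept, edgeR called 0.671% of all genes (124 of 18481) and 0 of the 44. The adjusted p was then 0.0561 for Cdk2 (log2 fold change 1.54, SE 0.31) and 0.0594 for Cdc20 (1.34, SE 0.29), with 12 of the 44 genes (27.3%) and 18.8% of all genes at an unadjusted p under 0.05. On those 8 libraries limma voom called 1 of the 44 genes, Cdk2 (adjusted p = 0.0440), and 1.90% of all genes. DESeq2 called 4 of the 44 (9.09%), namely Cdk2, Cdc20, Mcm3 and Kif20a, beside 9.93% of all genes, so that its share of the 44 was near the background.

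Cdk2 overlaps Pmel, a pigment cell gene on the opposite strand, by 837 bases. Pmel was at 1.02, 78.1 and 5.14 CPM in Synapsin-cre, 0.441, 0.610 and 2.67 CPM in Nestin-creERT2 and 162, 28.2 and 83.9 CPM in NG2-creERTM. It was high in the NG2-creERTM libraries and in Synapsin-cre replicate 2, where Cdk2 was high too. Reads on the strand opposite to Cdk2 within its own row numbered only 0 to 6 per library, against 206 to 3903 on its own strand. Cdc20 overlaps the 3' end of Elovl1 on the opposite strand by 53 bases, and opposite-strand counts there were 0 to 10 per library. The counts used keep the strands apart.

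Marker levels of other cells differed between these models as well. Of all genes tested, 11.0% were wholly higher and 14.2% wholly lower in NG2-creERTM than in Nestin-creERT2. In 5 of 7 Schwann cell markers every NG2-creERTM library exceeded every Nestin-creERT2 library, and their summed level was 1244 to 2325 CPM against 167 to 486 CPM, with Foxd3 under 1 CPM in all Nestin-creERT2 libraries. Of 9 fibroblast and meningeal markers 5 did so, with summed levels of 1204 to 3275 against 557 to 2055 CPM. Mature neuron markers summed to 56.3 to 248 CPM in NG2-creERTM and to 823 to 1191 CPM in Nestin-creERT2, with 11 of 12 wholly lower in NG2-creERTM. In 4 more lists the summed levels did not overlap. Oligodendrocyte markers summed to 1817 to 5176 CPM in NG2-creERTM and 364 to 1183 CPM in Nestin-creERT2 (3 of 8 wholly higher, 1 wholly lower), and pericyte and smooth muscle markers to 144 to 388 and 73.1 to 123 CPM (3 of 8 wholly higher). Astrocyte markers summed to 1665 to 4111 CPM in NG2-creERTM and 4586 to 6677 CPM in Nestin-creERT2 (3 of 10 wholly lower, 1 wholly higher), and microglia and macrophage markers to 481 to 682 and 687 to 724 CPM (1 of 11 wholly lower). Where a list had a count of 1, that count lay below the matching share of all genes. Glioma and glial progenitor markers overlapped, at 4829 to 8272 and 3417 to 10874 CPM, as did the remaining 4 lists. Among the latter, choroid plexus and ependyma markers summed to 6022 CPM in Nestin-creERT2 replicate 1 alone. They were at 11.2 and 14.3 CPM in its replicates 2 and 3 and at 8.96 to 15.9 CPM in NG2-creERTM. By mean log2 CPM, in contrast, oligodendrocyte markers overlapped (4.73 to 5.77 in NG2-creERTM, 3.82 to 5.62 in Nestin-creERT2). Microglia and macrophage markers did so too (4.54 to 5.24 and 4.78 to 5.23). Fibroblast and meningeal markers did not overlap by that measure (5.44 to 6.67 and 2.50 to 4.01). Choroid plexus and ependyma markers narrowly did not (-1.06 to -0.360 and -0.338 to 6.10). Sex-linked genes differed too. Xist, the RNA of the inactive X chromosome, was at 778 to 1810 CPM in Nestin-creERT2, whereas in NG2-creERTM its lowest, median and highest values were 0.989, 1.27 and 1320 CPM. The Y-linked Ddx3y was at 0 to 0.0715 CPM in Nestin-creERT2 and at 0.0523, 5.54 and 71.7 CPM in NG2-creERTM. The part of these cells and of sex in the division genes was not tested.

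**Figure D5:**
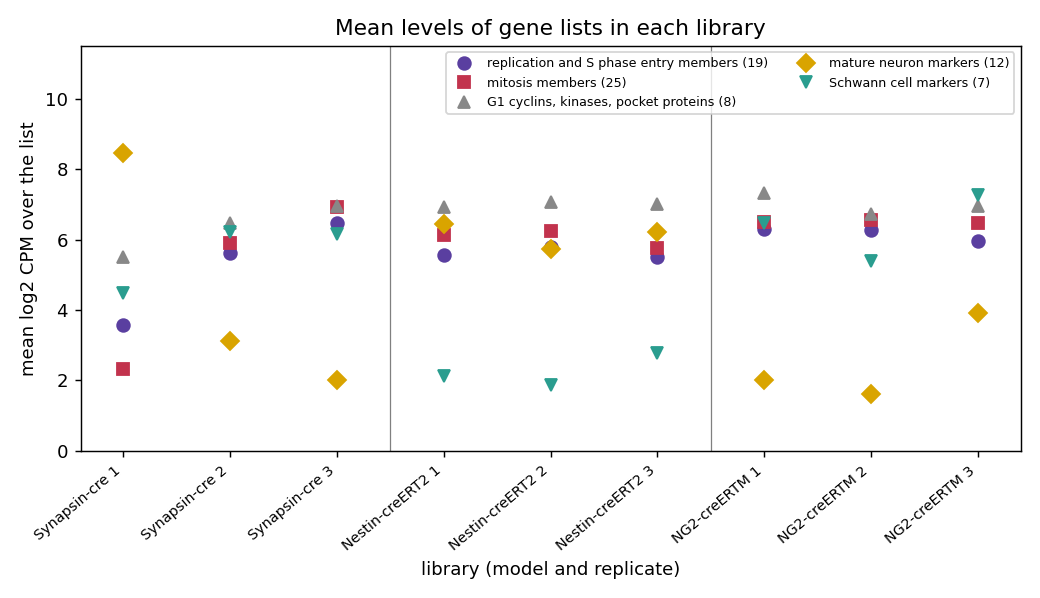
Each marker is the mean log2 CPM of a gene list in 1 library (vertical axis), with libraries along the horizontal axis and grey lines between models. Synapsin-cre replicate 1 combines the highest neuron markers (8.45) with the lowest division genes, and Schwann cell markers are low (1.87 to 2.78) in Nestin-creERT2.

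Comparisons with Synapsin-cre turned on which of its libraries were kept and, in fold changes, on the tool. Over all 9 libraries, 27 of 44 genes had positive fold changes of Nestin-creERT2 over Synapsin-cre, with a median log2 fold change of 0.09 against -0.13 over all genes. Without Synapsin-cre replicate 1 only 4 of 44 were positive and the median was -0.37, against -0.01 over all genes. For NG2-creERTM over Synapsin-cre 43 of 44 were positive with a median of 0.51, and 22 of 44 with a median of 0.0030 without that library. Leaving out Synapsin-cre replicate 3, the highest library, moved the medians further in the other direction, to 0.93 for Nestin-creERT2 (41 of 44 positive) and to 1.41 for NG2-creERTM (44 of 44 positive). These fold changes are edgeR's. On all 9 libraries limma voom gave medians of 0.66 for Nestin-creERT2 (41 of 44 positive) and 1.15 for NG2-creERTM (44 of 44 positive). DESeq2 gave 0.10 (28 of 44) and 0.53 (43 of 44). With all 9 libraries edgeR's test with Benjamini-Hochberg adjustment called 0 of the 44 genes and 0% of all genes in both comparisons and among the 3 models. At an unadjusted p under 0.05 it had 0 of the 44 genes in each of these, and 10.8, 12.8 and 13.1% of all genes. limma voom called 0 of the 44 genes and 0% of all genes in each, and DESeq2 called 0 of the 44 in each and 2.77, 2.49 and 4.84% of all.

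Synapsin-cre replicate 1 was singled out because these 44 genes were lowest in it. Comparisons of the same genes with Synapsin-cre without it are therefore conditioned on their values and are given as a description. The same holds for the spread in the 8-library fits of NG2-creERTM against Nestin-creERT2. With all 9 libraries Cdc20 had a log2 fold change of -1.09 in Nestin-creERT2 over Synapsin-cre (SE 0.89, edgeR adjusted p = 0.696). Without Synapsin-cre replicate 1, edgeR with Benjamini-Hochberg adjustment called 1.48% of all genes (273 of 18481) between Nestin-creERT2 and Synapsin-cre, and Cdc20 alone of the 44 genes, with 6 of the 44 (13.6%) and 21.5% of all genes at an unadjusted p under 0.05. Its log2 fold change was then -1.64 (SE 0.31, adjusted p = 0.0443), against 119.9 and 229.7 CPM in the 2 Synapsin-cre libraries kept. With the 5 libraries of these 2 models alone its adjusted p was 0.0585, and 0 of the 44 genes and 2.42% of all genes were called, with 5 of the 44 (11.4%) and 22.1% of all genes at an unadjusted p under 0.05. On the 8 libraries Cdk2 had a log2 fold change of -1.11 (SE 0.33, edgeR adjusted p = 0.109) and Ccne1 of 0.39 (SE 0.31, adjusted p = 0.493), and neither passed. Sex and model cannot be told apart between these 2 models, since Synapsin-cre had Xist at 1.02 to 1.28 CPM and Ddx3y at 59.2 to 66.9 CPM, with no overlap with Nestin-creERT2 in either.

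Between NG2-creERTM and Synapsin-cre without its first library, edgeR called 0.00541% of all genes (1 of 18481) and 0 of the 44. Among the 44 genes 1 was at an unadjusted p under 0.05, beside 12.02% of all genes (2222 of 18481). limma voom and DESeq2 called 0 of the 44 each, also with 1 at an unadjusted p under 0.05, and 0.0108 and 3.76% of all genes. Among the 3 models together edgeR called 1.87% of all genes (346 of 18481) and 0 of the 44, with 7 of the 44 (15.9%) and 22.3% of all genes at an unadjusted p under 0.05 and a lowest adjusted p of 0.0535 for Cdc20. There limma voom called 0 of the 44 and 0.936% of all genes, and DESeq2 called 4 of the 44 (9.09%) and 14.5% of all genes. Only between NG2-creERTM and Nestin-creERT2 did the share of the 44 at an unadjusted p under 0.05 exceed that of all genes in these edgeR fits without Synapsin-cre replicate 1.

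The order of the models can also be read with Synapsin-cre replicate 1 set aside, as a description only, since that library lay below every Nestin-creERT2 library in all 44 genes. In 5 of 44 genes (11.4%) every Nestin-creERT2 library was below the 5 libraries then left of the other models, where 5.99% of all genes were. These were Mcm3, Cdk2, Ccnb1, Aurkb and Cdc20. In 1 gene, Ccne1, every Nestin-creERT2 library was above the 5 others, where 9.24% of all genes were.

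Other genes of the pathway were read from 7 lists with 180 genes in all, each of which was tested. Of these genes 0 were called by edgeR with Benjamini-Hochberg adjustment in any comparison of all 9 libraries, without Synapsin-cre replicate 1 or with 2 models only. With all 9 libraries 2 to 5 of the 180 were at an unadjusted p under 0.05 in edgeR, fewer than the 10.8 to 13.1% of all genes, limma voom called 0, and DESeq2 called Cdk6 between Nestin-creERT2 and Synapsin-cre and among the 3 models. Without Synapsin-cre replicate 1 edgeR had 35 of the 180 (19.4%) at an unadjusted p under 0.05 between NG2-creERTM and Nestin-creERT2, near the 18.8% of all genes, and there limma voom called 0 and DESeq2 called 10 (5.56%), below its 9.93% of all genes. Of 64 other mitosis genes 55 had positive fold changes of NG2-creERTM over Nestin-creERT2 (median log2 fold change 0.55), as did 38 of 43 other replication origin and fork genes (0.43) and 19 of 21 genes of replication stress and repair (0.60). Of the 20 other nucleotide synthesis genes 17 were positive (0.34), of the 17 other E2F, MuvB and MYB regulators 10 were (0.04), of the 8 G1 cyclins, their kinases and pocket proteins 6 were (0.35), and of the 7 CDK inhibitors 5 were (0.21).

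In Synapsin-cre replicate 1 the other mitosis genes averaged -3.37 log2 units relative to the other 8 libraries, with 62 of 64 lowest there, and other replication genes averaged -1.71, with 38 of 43 lowest. Replication stress and repair genes averaged -2.11, with 20 of 21 lowest. Nucleotide synthesis genes averaged -1.27 (15 of 20 lowest), other E2F and MuvB regulators -1.38 (11 of 17 lowest, 1 highest) and G1 cyclins and their partners -1.43 (4 of 8 lowest). One mitosis gene went against the rest. Cit, which encodes citron kinase of the cytokinetic ring and is also made in neurons, was at 184, 48.3 and 65.4 CPM in Synapsin-cre, 66.0, 48.1 and 51.8 CPM in Nestin-creERT2 and 34.7, 49.1 and 39.1 CPM in NG2-creERTM, highest in Synapsin-cre replicate 1. The gene Timeless, of the fork protection complex, was at 21.2, 68.4 and 101.1 CPM in Synapsin-cre, 33.3, 50.7 and 35.1 CPM in Nestin-creERT2 and 87.6, 65.8 and 76.3 CPM in NG2-creERTM, with all Nestin-creERT2 libraries below all NG2-creERTM ones.

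Regulators of the G1 decision were more uneven. Cdk6, a partner of D cyclins, was at 9.60, 2.15 and 5.95 CPM in Synapsin-cre, 25.3, 103 and 18.03 CPM in Nestin-creERT2 and 10.1, 13.9 and 3.05 CPM in NG2-creERTM. It was highest in Nestin-creERT2, where all 3 libraries exceeded the other 6. Cdkn2c, which encodes the CDK4 and CDK6 inhibitor p18, was at 7.57, 40.7 and 31.7 CPM in Synapsin-cre, 42.5, 44.6 and 69.7 CPM in Nestin-creERT2 and 164, 70.9 and 55.5 CPM in NG2-creERTM, highest in NG2-creERTM replicate 1 and lowest in Synapsin-cre replicate 1. The inhibitors as a list fell short by -2.59 in that library, with 4 of the 7 lowest and 0 highest there.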

How the data were processed

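The authors deposited raw, unscaled counts of reads by gene, with 1 file per library. STAR, HTSeq and build mm10 appear in the submitters' processing notes without versions, and the annotation release is not given in the sources used here. The labels' protocols name Illumina library preparation and, for the RNA, a Qiagen RNeasy kit.

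Counts of the strand with most reads were used, since the other strand held 3.25 to 3.64% of reads in genes, and the 4 summary lines of each file were left out. Symbols and coordinates for 46005 of 46517 identifiers came from GENCODE vM21 on GRCm38. Genes were filtered with filterByExpr, scaled with TMM and tested with edgeR 4.0.16 in R 4.3.3 (negative binomial quasi-likelihood test, 2-sided, Benjamini-Hochberg adjustment over all genes tested, threshold 0.05) with the model as the only term. The script was tested on simulated data. Standard errors are the fold change divided by the root of F. log2 CPM used a prior count of 2, and exon lengths are unions of annotated exons. Alternatives were other size factors and filters, limma 3.58.1 voom, DESeq2 1.42.0, unstranded counts, 2 models only and each library left out. Tables and figures were made in Python 3.11.15 (matplotlib 3.10.9, pandas 2.3.3, numpy 2.4.6).

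The 44 genes, the 7 pathway lists and the 12 marker lists were chosen with earlier results of these data known, and 1 gene of the marker lists is not reported here. Values in every library are given for 28 genes by rule: per role the 2 with the highest mean CPM per kb, the 5 with the smallest p among the 3 models, and the 5 most and 5 least variable relative to the mean of the 44. Mcm2, Mcm5, Cdk1 and others of the 44 are given by their range. Of each pathway list, the named genes are among its 4 smallest p.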

Additional observations from a re-analysis of the deposited data

How the results depend on the processing

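Counts of genes called depended on Synapsin-cre replicate 1 and on the tool, while 0 to 4 of the 44 genes were called under the settings run. Leaving out 1 library at a time gave 0 to 273 genes between Nestin-creERT2 and Synapsin-cre, 0 to 1 between NG2-creERTM and Synapsin-cre, 0 to 124 between NG2-creERTM and Nestin-creERT2 and 0 to 346 among the 3 models, the highest each time without Synapsin-cre replicate 1. Without NG2-creERTM replicate 2 these comparisons, apart from NG2-creERTM against Synapsin-cre, gave 1, 2 and 2, and without its replicate 3 Nestin-creERT2 against Synapsin-cre gave 2. Of the 44 genes, leaving out 1 library gave 0 to 1 between Nestin-creERT2 and Synapsin-cre (Cdc20, without Synapsin-cre replicate 1) and 0 in the other comparisons. The median log2 fold change of the 44 genes ranged from -0.37 to 0.93, from 0.0030 to 1.41 and from 0.38 to 0.62 in the 3 pairs, in the order above, and the first was lowest without Synapsin-cre replicate 1 and highest without replicate 3. With limma voom on all 9 libraries the medians of the 3 pairs were 0.66, 1.15 and 0.52. Nestin-creERT2 against Synapsin-cre gave 12 genes with no filter, 266 with voom quality weights, 497 with DESeq2, 1 with unstranded counts and 5 with 2 models only. NG2-creERTM against Synapsin-cre gave 446 with DESeq2. NG2-creERTM against Nestin-creERT2 gave 12 with no filter, 160 with voom quality weights, 624 with DESeq2 and 237 with 2 models only, where 1 of the 44 genes was called. Among the 3 models no filter gave 23 and DESeq2 868. Chosen after seeing the data were settings that also left out Synapsin-cre replicate 1. These tested 18481 genes, and counts follow the same order of pairs. DESeq2 gave 2175, 694 and 1835 genes with 3, 0 and 4 of the 44. limma voom gave 420, 2 and 351 with 1, 0 and 1, and library totals in place of TMM 338, 1 and 167 with 1, 0 and 0. With 2 models only there were 431 of 17797 and 1 of 17661 genes in the first 2 pairs and 0 of the 44. Among the 3 models DESeq2 gave 2680 with 4 of the 44, limma voom 173 and library totals 474. The cause of these differences was not tested. Library totals moved the median log2 fold change of all genes from -0.13 to -0.02 between Nestin-creERT2 and Synapsin-cre and that of the 44 from 0.09 to 0.20. In the 150 bases nearest the start (100 before to 50 after), cell cycle homology matches were in 85.0% of mitosis, 22.2% of replication and 12.8% of all windows, and E2F matches in 0, 22.2 and 1.27%. No paired analysis was possible because the replicate numbers come from the order of records and are not shared between models.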

Other observations

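Genes outside the lists that followed the 44 were sought by Pearson correlation with their mean log2 CPM, among 12492 protein-coding genes. Over all 9 libraries the 10 closest were Ddias (r = 0.99), Prdx4, Myb, Srbd1, Zwilch, H2afz, Ska3, Trim59, Hmgb2 and Mtfr2. Zwilch and Ska3 encode kinetochore proteins and H2afz and Hmgb2 chromatin proteins. Ska3 was at 0.974, 14.8 and 35.99 CPM in Synapsin-cre, 17.0, 12.4 and 9.08 CPM in Nestin-creERT2 and 25.3, 17.3 and 21.7 CPM in NG2-creERTM, and Hmgb2 at 6.24, 119.8 and 346 CPM in Synapsin-cre, 106, 174 and 108 CPM in Nestin-creERT2 and 129, 292 and 194 CPM in NG2-creERTM. Synapsin-cre replicate 1 was far below the others in both.

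Over the 8 libraries without Synapsin-cre replicate 1 the 10 closest were other genes, namely Fbl (r = 0.97), Mrpl18, Lsm5, Adsl, Rpl37, Arf5, Zfp764, Scpep1, Suclg2 and Dnajc21. Fbl encodes fibrillarin, which modifies ribosomal RNA, Mrpl18 and Rpl37 encode ribosomal proteins and Adsl an enzyme of purine synthesis. Fbl was at 19.5, 57.5 and 119 CPM in Synapsin-cre, 70.9, 69.6 and 51.2 CPM in Nestin-creERT2 and 89.8, 108 and 88.2 CPM in NG2-creERTM. Its 3 NG2-creERTM libraries exceeded its 3 Nestin-creERT2 libraries, and Synapsin-cre replicate 3 was the highest. Correlations over 0.9 were found for 281 genes over 9 libraries and for 44 genes over 8. Genes within a library share its depth and scaling, and the values carry no test.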
